A study of Mus musculus with 4 samples.

Results

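The 33 genes described here are immediate-early genes, heat-shock chaperones and feedback genes of the NF-kB pathway, chosen by a list of symbols out of 21993 genes in the files. All 33 were found once in each of 4 RNA sequencing libraries, labelled as NK cells of the uterus (CD3-, CD45+ and NK1.1+), sorted from female mice at gd11.5 of gestation after mating with B6 males. Of the libraries, 2 came from mice that carried Ncr1Cre, a Cre recombinase driven from Ncr1, the gene of the NK-cell receptor NKp46. The other 2 came from control mice without Cre, and both genotypes were homozygous for the same floxed gene. Because the controls lacked Cre, an effect of Cre and an effect of the deletion cannot be told apart. Whether separate mice stand behind the libraries of a genotype is not stated in the labels. The p-values therefore measure library-to-library spread, which may be technical. The comparison asks which of these genes differed between the genotypes.

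Immediate-early genes are transcribed within minutes of a stimulus without new protein synthesis. Their products include the AP-1 factors of the FOS and JUN families and the EGR and NR4A factors, while dual-specificity phosphatases and mRNA-decay factors induced beside them end the response. Heat-shock genes encode chaperones that hold and refold proteins and are switched on by heat-shock factor, and NF-kB switches on its own inhibitors, such as Nfkbia and Tnfaip3. Many of these genes are also known to respond when tissue is dissociated and cells are sorted.

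Levels are in FPKM, the fragments counted for each kilobase of a transcript and scaled by library depth, so that they can be compared between genes per length. The values of a genotype's 2 libraries are given in the order of their replicate numbers, and means carry the SD with n = 2. Log2 fold changes are Ncr1Cre minus control on the log2(FPKM + 1) scale, with a standard error (SE) and an adjusted p from limma with the Benjamini-Hochberg method over 11762 genes tested, and a gene passed the test at an adjusted p under 0.05. The depth was estimated at 26025000 and 22683000 fragments for Ncr1Cre, against 38507000 and 20953000 for control. In these bulk libraries, fewer cells of a type and less RNA per cell cannot be told apart.

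The expression of marker genes went against the label in both genotypes. The 12 NK-cell markers summed to 44.1 and 42.8 FPKM in the Ncr1Cre libraries, against 29.2 and 29.0 in the control libraries, and 4 of the 6 tested rose. Ncr1 itself had values of 0 and 0.15 FPKM in Ncr1Cre, against 0.14 and 0.36 in control. The 12 markers of decidual stroma and fibroblasts summed to 11952 and 12139 FPKM in the Ncr1Cre libraries, against 25268 and 26059 in the control libraries, and all 12 fell. The 11 markers of uterine epithelium summed to 49107 and 52142 FPKM in the Ncr1Cre libraries, against 10199.7 and 10323 in the control libraries, and 10 of the 11 rose. Prap1, chosen after its value was seen, made up most of these sums. It stood at 46369 and 49335 FPKM in the Ncr1Cre libraries, against 9530 and 9667 in the control libraries. Stromal and epithelial genes were therefore far above NK-cell genes in every library, and the balance between them differed between the genotypes. Of 7 tested smooth-muscle markers, 7 fell, with sums of 218 and 212 FPKM in Ncr1Cre, against 598 and 587 in control. Des, named after its value was seen, is in both the stromal and the smooth-muscle list, so these counts are not separate. It stood at 144 and 143 FPKM in the Ncr1Cre libraries, against 254 and 245 in the control libraries. Of 9 tested macrophage and dendritic-cell markers, 8 rose, with sums of 103 FPKM in both Ncr1Cre libraries, against 30.4 and 32.7 in control. Of 6 neutrophil markers only 2 were tested and both rose, with sums of 21.6 and 20.2 FPKM in Ncr1Cre, against 2.59 and 2.12 in control. S100a8, named after its value was seen, stood at 9.84 and 8.30 FPKM in Ncr1Cre, against 0.71 and 0.85 in control. It reached the filter only through the Ncr1Cre libraries. Of 6 tested endothelial markers 3 rose and 1 fell, with sums of 31.4 and 31.1 FPKM in Ncr1Cre, against 17.2 in both control libraries. All 6 tested trophoblast markers rose, with sums of 975 and 1093 FPKM in Ncr1Cre, against 316 and 356 in control, while Gcm1 was listed at 0 in all 4 libraries. All 5 tested erythroid markers rose, with sums of 669 and 788 FPKM in Ncr1Cre, against 69.2 and 77.4 in control. Over all genes tested, 30.9% rose and 17.6% fell. The part of these marker differences in the results below was not tested.

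All 33 genes passed the filter of a mean of at least 1 FPKM, and many were among the most abundant transcripts of both genotypes. Of the 33, 4 ranked among the 100 highest genes in every library and 12 among the 200 highest. Between the genotypes, 18 of the 33 passed the test, which is 54.5% against 48.5% of all genes tested. Of these, 8 rose in Ncr1Cre (24.2%, against 30.9% of all genes) and 10 fell (30.3%, against 17.6% of all genes). The 2 genotypes did not overlap for 25 of the 33 genes (75.8%), against 76.2% of all genes. The shares that passed and that did not overlap were thus near those of all genes, and the median log2 fold change of the 33 genes was 0.14 beside 0.11 over all genes tested. Rescaling each library to a common median moved the median of all genes to 0.0024, and quantile normalization moved it to -0.054. Fold changes are therefore to be read beside 0.11, but the shift was not the same for every gene. With quantile normalization the log2 fold change of Fosb went from 0.23 to -0.028 and that of Klf6 from 0.23 to 0.15. Genes that rose and genes that fell stood side by side among the NR4A receptors and the DUSP phosphatases. The counts of each role group below are to be read beside the 30.9% higher and 17.6% lower of all genes.

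**Figure D1:**
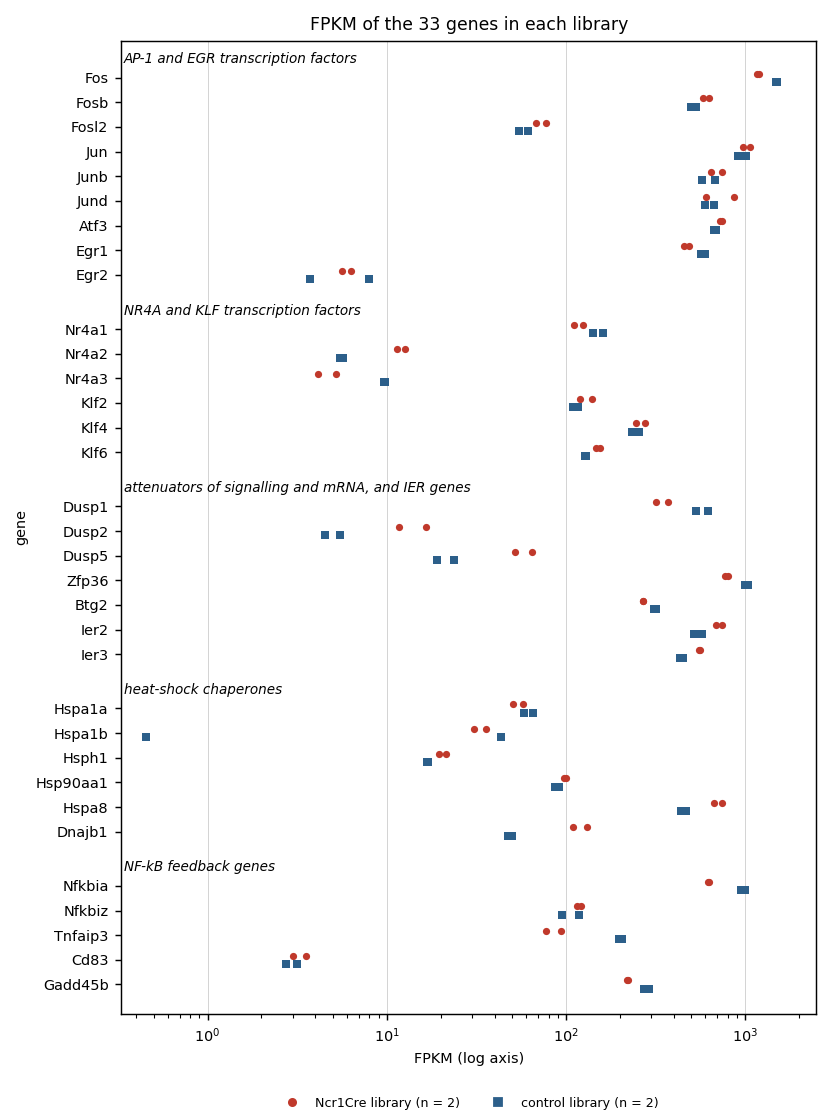
FPKM of each of the 33 genes in each library on a log axis, grouped by role, with 1 mark per library (2 Ncr1Cre, 2 control). Marks of the genotypes lie close together for most genes, Dusp2, Dusp5 and Dnajb1 lie to the right and Tnfaip3 to the left in Ncr1Cre, and Hspa1b has 1 control library at 0.45 FPKM.

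Among the 9 AP-1 and EGR factors, Fos and Egr1 fell in Ncr1Cre and none rose, and this count was the same after median rescaling and after quantile normalization. Fos, the FOS subunit of AP-1, stood at 1169 and 1193 FPKM in the Ncr1Cre libraries, against 1495 and 1503 in the control libraries. It was the highest of the 33 genes and ranked 35 and 38 of all genes in the Ncr1Cre libraries and 19 in both control libraries. Its means were 1181 ± 16.9 FPKM in Ncr1Cre and 1499 ± 5.46 in control (log2 fold change -0.34, SE 0.057, adjusted p = 0.00720). The replicates of each genotype were close, and the genotypes did not overlap. Egr1, a zinc-finger factor induced by ERK signalling, stood at 489 and 455 FPKM in the Ncr1Cre libraries, against 597 and 564 in the control libraries (log2 fold change -0.30, SE 0.070, adjusted p = 0.0206). Its call rested on single libraries: the adjusted p was 0.0924 without replicate 2 of Ncr1Cre, 0.104 without replicate 1 of the control and 0.0543 without replicate 2 of the control.

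Fosb and Fosl2, the other FOS subunits among the 33 genes, did not pass the test. Fosb stood at 632 and 582 FPKM in the Ncr1Cre libraries, against 533 and 498 in the control libraries (log2 fold change 0.23, adjusted p = 0.0512), but after quantile normalization its log2 fold change was -0.028. Fosl2, a FOS subunit without the strong activating domain of Fos, stood at 77.8 and 67.7 FPKM in the Ncr1Cre libraries, against 61.6 and 54.9 in the control libraries (log2 fold change 0.32, adjusted p = 0.0538). Neither gene overlapped between the genotypes, and Fosl2 stood well below its relatives.

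The JUN partners overlapped between the genotypes and none passed the test. Jun, the partner that binds DNA together with FOS proteins, stood at 1069 and 969 FPKM in the Ncr1Cre libraries, against 1006 and 916 in the control libraries. Its log2 fold change was 0.085 with a 95% interval of -0.13 to 0.30. Junb stood at 742 and 648 FPKM in the Ncr1Cre libraries, against 679.6 and 576 in the control libraries. The spread between replicates of Junb was larger than the distance between the genotypes (log2 fold change 0.15, 95% interval -0.14 to 0.44). Jund, the most constitutive JUN gene, stood at 871 and 605 FPKM in the Ncr1Cre libraries, against 671 and 594 in the control libraries. Replicate 1 of Ncr1Cre stood apart for Jund, and without replicate 2 of Ncr1Cre the gene passed the test (adjusted p = 0.0207).

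Atf3, a stress-induced factor that pairs with JUN proteins, stood at 744 and 721 FPKM in the Ncr1Cre libraries, against 691 and 669.7 in the control libraries. The genotypes did not overlap, but the log2 fold change of 0.11 equalled the median of all genes (adjusted p = 0.202). Egr2, a relative of Egr1, was low, at 6.33 and 5.63 FPKM in the Ncr1Cre libraries, against 7.98 and 3.75 in the control libraries. Its control libraries lay on either side of both Ncr1Cre libraries (log2 fold change 0.094, adjusted p = 0.819), and it passed the test without replicate 1 of the control (adjusted p = 0.0465). The 9 genes summed to 5799 and 5245 FPKM in the Ncr1Cre libraries, against 5742 and 5379.5 in the control libraries. These sums overlapped, and Fos made up 20.2% and 22.7% of them in Ncr1Cre, against 26.0% and 27.9% in control.

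The NR4A orphan nuclear receptors, which are induced by the same stimuli and bind DNA without a known hormone, moved in opposite directions. Nr4a2 rose to 12.6 and 11.4 FPKM in the Ncr1Cre libraries, against 5.45 and 5.69 in the control libraries. Its means of 12.0 ± 0.82 FPKM in Ncr1Cre and 5.57 ± 0.17 in control were 2.16-fold apart (log2 fold change 0.99, SE 0.093, adjusted p = 0.00123). Nr4a3 fell to 4.13 and 5.23 FPKM in the Ncr1Cre libraries, against 9.78 and 9.70 in the control libraries (log2 fold change -0.93, SE 0.12, adjusted p = 0.00351). The order of these 2 receptors was thus exchanged, with Nr4a2 above Nr4a3 in both Ncr1Cre libraries and below it in both control libraries. Nr4a1, the most abundant of the family, stood at 125 and 111 FPKM in the Ncr1Cre libraries, against 161 and 141 in the control libraries (log2 fold change -0.35, SE 0.099, adjusted p = 0.0356). Its call was lost without replicate 2 of Ncr1Cre (adjusted p = 0.117) and without replicate 1 of the control (adjusted p = 0.138).

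Of the 3 KLF zinc-finger factors, 1 passed the test. Klf6, which responds to injury, stood at 154 and 147 FPKM in the Ncr1Cre libraries, against 127 and 129.7 in the control libraries (log2 fold change 0.23, SE 0.063, adjusted p = 0.0351), but its adjusted p was 0.257 after median rescaling and 0.0777 to 0.165 without any 1 library. Klf2, a factor of quiescent lymphocytes and endothelium, stood at 139.7 and 119.6 FPKM in the Ncr1Cre libraries, against 117 and 110.1 in the control libraries (log2 fold change 0.19, adjusted p = 0.166). Klf4, known from epithelial differentiation, stood at 276 and 245 FPKM in the Ncr1Cre libraries, against 255 and 235 in the control libraries (log2 fold change 0.085, adjusted p = 0.461). The genotypes overlapped for Klf4 and not for Klf2. Of the 6 NR4A and KLF genes, 2 rose and 2 fell, and 1 rose and 2 fell after either rescaling. Their sums overlapped, at 711 and 639 FPKM in Ncr1Cre, against 676 and 631 in control.

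All 7 attenuators and IER genes passed the test, beside 48.5% of all genes, with 4 higher and 3 lower in Ncr1Cre. The number higher was 3 after median rescaling and 2 after quantile normalization, and the number lower stayed at 3. The dual-specificity phosphatases, which remove phosphate from MAP kinases, divided. Dusp5, a nuclear phosphatase of ERK, rose to 64.7 and 51.7 FPKM in the Ncr1Cre libraries, against 23.7 and 19.2 in the control libraries. The 2.72-fold difference had a log2 fold change of 1.40 (SE 0.15, adjusted p = 0.00183). Dusp2, another nuclear phosphatase, best known from activated lymphocytes, rose to 16.6 and 11.7 FPKM in the Ncr1Cre libraries, against 5.46 and 4.53 in the control libraries (log2 fold change 1.32, SE 0.18, adjusted p = 0.00406). Dusp1, which acts on p38 and JNK as well as ERK and is the most abundant of these phosphatases here, fell to 373 and 318 FPKM in the Ncr1Cre libraries, against 618 and 531 in the control libraries (log2 fold change -0.73, SE 0.11, adjusted p = 0.00592). The genotypes did not overlap for any of the 3, and these calls held under all 11 alternatives.

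The upstream regions of Dusp5 and Dusp1, which moved in opposite directions, are shown so that their motifs can be compared. That of Zfp36, which fell and shares a motif with Dusp5, is shown beside them. The regions are the 250 bases before the start in RefSeq on GRCm38.p6, in the direction of transcription. Capitals mark a CArG box (the site of serum response factor) in Dusp5 at -82 to -73 and again at -72 to -63 from the start, a cAMP response element TGACGTCA in Dusp1 at -143 to -136, and in Zfp36 an EGR motif GCGNGGGCG at -105 to -97 and a CArG box at -58 to -49. The Dusp5 region is chr19:53528895-53529144 on the plus strand, the Dusp1 region chr17:26508473-26508722 on the minus strand and the Zfp36 region chr7:28379229-28379478 on the minus strand.
Dusp5: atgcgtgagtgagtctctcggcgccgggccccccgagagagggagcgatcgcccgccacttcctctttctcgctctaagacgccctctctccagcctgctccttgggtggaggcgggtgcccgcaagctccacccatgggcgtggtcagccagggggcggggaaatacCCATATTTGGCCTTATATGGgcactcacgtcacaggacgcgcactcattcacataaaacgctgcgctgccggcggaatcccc
Dusp1: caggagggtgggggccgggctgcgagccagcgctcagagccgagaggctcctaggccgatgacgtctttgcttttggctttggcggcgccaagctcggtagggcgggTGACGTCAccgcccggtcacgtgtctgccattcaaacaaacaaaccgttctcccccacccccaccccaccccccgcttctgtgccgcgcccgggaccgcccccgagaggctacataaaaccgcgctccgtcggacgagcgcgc
Zfp36: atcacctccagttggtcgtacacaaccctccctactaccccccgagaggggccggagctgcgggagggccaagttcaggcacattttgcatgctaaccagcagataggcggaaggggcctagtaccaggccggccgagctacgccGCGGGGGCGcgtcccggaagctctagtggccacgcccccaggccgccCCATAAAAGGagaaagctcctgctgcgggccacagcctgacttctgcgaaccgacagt
RefSeq windows of 300 bases, from 250 before to 50 after the start, matched 27 of the 33 genes with 34 windows, and some windows of 1 gene overlap. Matches are therefore counted by gene, on both strands, beside the share of the 27025 genes with 32851 windows that were searched. Windows of 1 mouse chromosome were left out before the search, and shares of all genes or windows below are of those searched. Egr1 and Ier2 were among the members without a window, so no count of matches covers them. Sites farther than 250 bases before a start were not searched, so a gene without a match may hold a site farther away. CArG boxes stood in 3 of the 27 genes, Dusp5, Egr2 and Zfp36, beside 1.81% of all genes (1.63% of all windows). The cAMP response element stood in 2 genes, Dusp1 and Btg2, beside 2.03% of all genes (1.79% of windows), and the EGR motif in 10 genes, beside 6.27% (5.55% of windows). These matches describe letters in the windows, not bound sites.

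Both mRNA-decay genes among the attenuators were lower in Ncr1Cre. Zfp36, which encodes tristetraprolin and speeds the decay of mRNAs with AU-rich elements, stood at 806 and 769.6 FPKM in the Ncr1Cre libraries, against 999 and 1036 in the control libraries. It fell to 788 ± 25.8 FPKM in Ncr1Cre, against 1017 ± 26.0 in control (log2 fold change -0.37, SE 0.062, adjusted p = 0.00750). Btg2, an antiproliferative gene that promotes deadenylation, stood at 269 FPKM in both Ncr1Cre libraries, against 311 and 317 in the control libraries (log2 fold change -0.22, SE 0.057, adjusted p = 0.0276). The replicates of Btg2 were nearly equal, but its adjusted p was 0.0933 to 0.123 when any 1 library was left out. The 2 IER genes were higher in Ncr1Cre. Ier2 stood at 739 and 690.4 FPKM in the Ncr1Cre libraries, against 577 and 516 in the control libraries (log2 fold change 0.39, SE 0.082, adjusted p = 0.0150). Ier3, which modulates survival and ERK signalling, stood at 562 and 552 FPKM in the Ncr1Cre libraries, against 452 and 434 in the control libraries (log2 fold change 0.33, SE 0.060, adjusted p = 0.00937). Neither overlapped, but after quantile normalization the adjusted p was 0.202 for Ier2 and 0.411 for Ier3. Ier2 was also at 0.0503 after median rescaling and without replicate 1 of Ncr1Cre and at 0.0690 without replicate 2 of the control, and Ier3 was at 0.0570 without replicate 2 of the control.

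**Figure D2:**
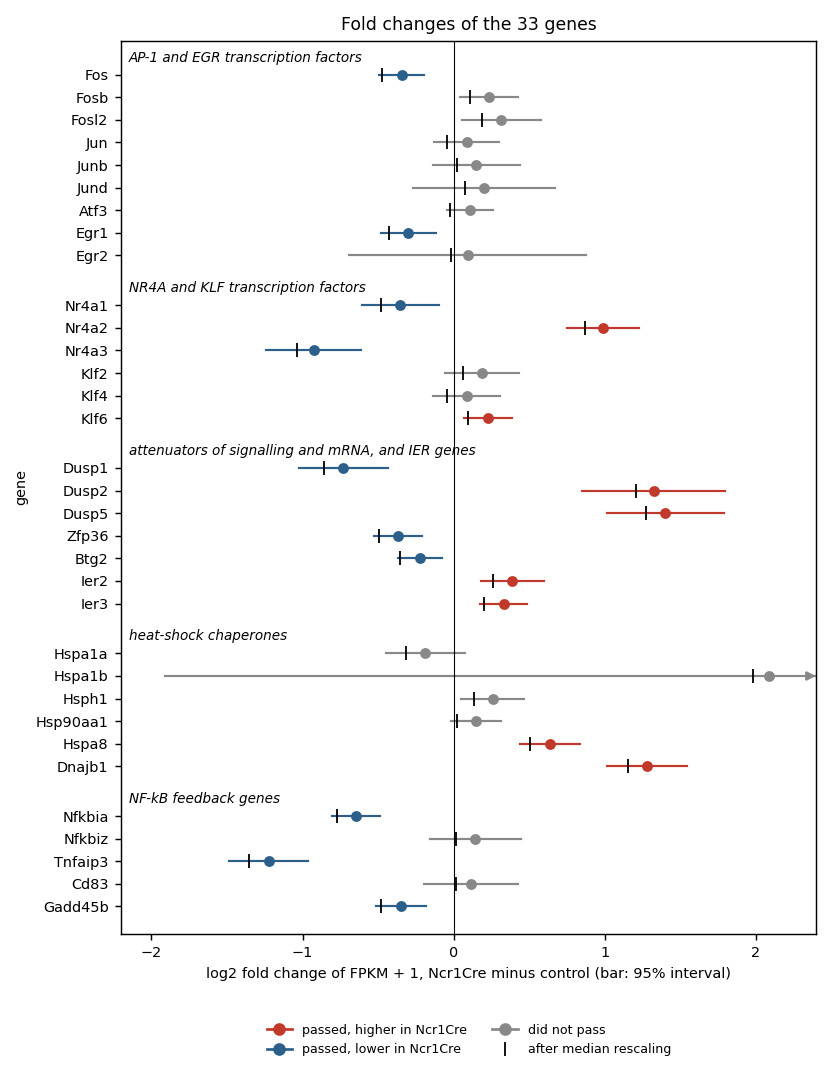
Log2 fold change of FPKM + 1, Ncr1Cre minus control, of each gene with its 95% interval from limma, and vertical ticks at the value after median rescaling. Of the 33 genes, 8 that passed lie to the right of 0 and 10 to the left, and the interval of Hspa1b spans -1.91 to 6.09, beyond the axis where an arrow ends it.

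Among the 6 heat-shock chaperones, Hspa8 and Dnajb1 rose in Ncr1Cre and none fell, while after either rescaling the same number rose and Hspa1a fell. Dnajb1, an HSP40 co-chaperone that delivers clients to HSP70, rose to 131 and 109.7 FPKM in the Ncr1Cre libraries, against 47.7 and 50.1 in the control libraries. The difference was 2.46-fold (120.5 ± 15.4 FPKM in Ncr1Cre and 48.9 ± 1.76 in control, log2 fold change 1.28, SE 0.10, adjusted p = 0.000800). Hspa8, the constitutive HSC70, rose to 673 and 743 FPKM in the Ncr1Cre libraries, against 439.8 and 469.7 in the control libraries (log2 fold change 0.64, SE 0.078, adjusted p = 0.00272). The genotypes lay apart for both genes by more than the spread between replicates, and both calls held under all 11 alternatives. Hsph1, an HSP110 nucleotide-exchange factor, stood at 21.3 and 19.5 FPKM in the Ncr1Cre libraries, against 17.0 and 16.8 in the control libraries (log2 fold change 0.26, adjusted p = 0.0515). Hsp90aa1, the inducible HSP90, stood at 97.2 and 100.1 FPKM in the Ncr1Cre libraries, against 86.9 and 91.0 in the control libraries. Its log2 fold change was 0.15 (95% interval -0.018 to 0.31, adjusted p = 0.118), and -0.024 after quantile normalization. Both genes lay without overlap between the genotypes, with differences smaller than those of Dnajb1 and Hspa8.

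The inducible HSP70 genes are near-copies of each other, and neither passed the test. Hspa1a stood at 58.0 and 50.7 FPKM in the Ncr1Cre libraries, against 65.8 and 58.3 in the control libraries. Hspa1b, its neighbour, stood at 35.9 and 30.6 FPKM in the Ncr1Cre libraries, against 43.3 and 0.45 in the control libraries. The coding sequences of the pair (1923 and 1926 bases) are 99.5% identical, so reads from them could be assigned to either gene. Their longest annotated transcripts (2967 and 2803 bases) are 86.7% identical, so reads from the untranslated parts can differ between them. The low value of Hspa1b in replicate 2 of the control had no counterpart in the other libraries. For Hspa1a alone the log2 fold change was -0.19 (SE 0.10, adjusted p = 0.183), with an adjusted p of 0.0458 after median rescaling and 0.0377 after quantile normalization. For Hspa1b alone it was 2.09 with an SE of 1.56 (adjusted p = 0.318). Without replicate 1 of the control it was 4.55 (adjusted p = 0.00151), and without replicate 2 of the control -0.38 (adjusted p = 0.0898). Summed, which was decided after their values were seen, the pair stood at 93.9 and 81.3 FPKM in the Ncr1Cre libraries, against 109 and 58.8 in the control libraries (log2 fold change 0.12, SE 0.29, adjusted p = 0.753). No direction can be given for the pair.

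The region upstream of Hspa1a is shown as an example of a chaperone gene with a heat-shock element, although Hspa1a did not pass the test. It holds the head-to-head element GAANNTTC at -104 to -97 and an NF-kB consensus at -133 to -124, both in capitals (chr17:34972157-34972406, minus strand, RefSeq on GRCm38.p6).
Hspa1a: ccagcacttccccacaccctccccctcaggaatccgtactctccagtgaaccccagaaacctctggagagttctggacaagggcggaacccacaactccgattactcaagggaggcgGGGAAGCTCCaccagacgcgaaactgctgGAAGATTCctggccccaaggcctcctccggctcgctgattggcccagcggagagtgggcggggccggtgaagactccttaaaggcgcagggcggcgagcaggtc
GAANNTTC, searched on both strands, stood in 5 of the 27 genes, Fosl2, Jun, Hspa1a, Hspa1b and Hsph1, beside 9.04% of all genes (7.86% of windows). Hspa1a and Hspa1b are not independent here, since their windows are 98.7% identical. The tail-to-tail form TTCNNGAA stood in 2 genes, Egr2 and Hsph1, beside 9.60% (8.52% of windows). The 2 forms may overlap in longer elements. Of the chaperones that rose, Dnajb1 held neither form in its windows and Hspa8 had no window. Hsp90aa1 had no window either.

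Levels of the 6 chaperones summed to 1017 and 1053 FPKM in the Ncr1Cre libraries, against 701 and 686 in the control libraries. Without Hspa1b the sums were 981 and 1023 FPKM in the Ncr1Cre libraries, against 657 and 686 in the control libraries. The higher sum thus did not rest on that gene, but it came mostly from Hspa8 and Dnajb1, the 2 that passed. Mean Hspa8 was 708 FPKM in Ncr1Cre and 455 in control, and mean Dnajb1 was 120.5 and 48.9. The higher sum is therefore not a trait of each of the 6 genes. Hspa8 made up 66.2% and 70.5% of the 6 in Ncr1Cre, against 62.8% and 68.4% in control. The median log2 fold change was 0.45 over the 6 genes and 0.26 without Hspa1b. Epithelial markers were higher in the same libraries, with the sums of 49107 and 52142 FPKM in Ncr1Cre, against 10199.7 and 10323 in control. Most of these sums came from Prap1. The sums of the other marker lists were higher too, except those of stroma and smooth muscle, which were lower. The part of the markers in the difference of the chaperones was not tested.

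All 3 NF-kB feedback genes that passed the test fell in Ncr1Cre, under each scaling, and the other 2 overlapped between the genotypes. Tnfaip3, which encodes the ubiquitin-editing enzyme A20, fell to 93.4 and 77.8 FPKM in the Ncr1Cre libraries, against 205 and 197 in the control libraries. Its mean was 85.6 ± 11.0 FPKM in Ncr1Cre and 201 ± 5.58 in control, a ratio of 0.427 (log2 fold change -1.23, SE 0.10, adjusted p = 0.000861). This was the largest fall of the 33 genes, and its rank was 624 and 756 in the Ncr1Cre libraries against 271 and 278 in the control libraries. Nfkbia, which encodes the inhibitor IkBa that holds NF-kB in the cytoplasm, fell to 627 and 623 FPKM in the Ncr1Cre libraries, against 1003 and 954 in the control libraries (log2 fold change -0.65, SE 0.061, adjusted p = 0.00123). Gadd45b, an NF-kB and stress target that restrains JNK signalling, stood at 219 and 223 FPKM in the Ncr1Cre libraries, against 291 and 272 in the control libraries (log2 fold change -0.35, SE 0.065, adjusted p = 0.0103). The calls of Tnfaip3 and Nfkbia held under all 11 alternatives, and that of Gadd45b was lost without replicate 1 of the control (adjusted p = 0.0557). Nfkbiz, a nuclear IkB protein that acts as a coactivator, stood at 121 and 115 FPKM in the Ncr1Cre libraries, against 119 and 95.4 in the control libraries (log2 fold change 0.14, adjusted p = 0.360). Cd83, a surface protein of activated antigen-presenting cells, stood at 3.53 and 3.01 FPKM in the Ncr1Cre libraries, against 3.16 and 2.73 in the control libraries (log2 fold change 0.11, adjusted p = 0.475). Neither Nfkbiz nor Cd83 could be told apart between the genotypes, and after quantile normalization the log2 fold change of Cd83 was -0.047.

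The regions upstream of Tnfaip3 and Nfkbia are shown because both genes fell and both are described as direct NF-kB targets. Capitals mark an NF-kB consensus at -125 to -116 and at -12 to -3 and an AP-1 site TGANTCA at -136 to -130 in Tnfaip3 (chr10:19015411-19015660, minus strand), and an NF-kB consensus at -29 to -20 in Nfkbia (chr12:55492648-55492897, minus strand), both from RefSeq on GRCm38.p6. Of the 2 windows of Tnfaip3 the one with matches is shown, and the other held none of the motifs searched. The window of Gadd45b, which fell too, held no NF-kB consensus.
Tnfaip3: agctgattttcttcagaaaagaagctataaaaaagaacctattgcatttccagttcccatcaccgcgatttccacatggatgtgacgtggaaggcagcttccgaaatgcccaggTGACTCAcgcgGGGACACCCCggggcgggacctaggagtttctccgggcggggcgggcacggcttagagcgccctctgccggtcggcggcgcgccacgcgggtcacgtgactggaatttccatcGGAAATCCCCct
Nfkbia: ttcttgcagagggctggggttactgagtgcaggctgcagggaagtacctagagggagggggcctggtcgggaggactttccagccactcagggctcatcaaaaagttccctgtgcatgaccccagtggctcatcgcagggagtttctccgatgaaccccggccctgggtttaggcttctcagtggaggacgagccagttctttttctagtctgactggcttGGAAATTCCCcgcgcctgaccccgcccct
The NF-kB consensus stood in 10 of the 27 genes (Fos, Fosb, Fosl2, Egr2, Nr4a1, Ier3, Hspa1a, Hspa1b, Nfkbia and Tnfaip3), beside 9.55% of all genes (8.46% of windows). Of these 10, Ier3 rose, Fos, Nr4a1, Nfkbia and Tnfaip3 fell, and the others did not pass. The AP-1 site stood in 1 gene, Tnfaip3, beside 8.97% (7.81% of windows).

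The 5 genes summed to 1063 and 1041 FPKM in the Ncr1Cre libraries, against 1621 and 1521 in the control libraries, a ratio of 0.670. Nfkbia made up 58.9% and 59.8% of the sum in Ncr1Cre, against 61.9% and 62.7% in control, and Tnfaip3 8.79% and 7.47% against 12.6% and 12.9%. The fall was accompanied by lower stromal markers, which summed to 11952 and 12139 FPKM in the Ncr1Cre libraries, against 25268 and 26059 in the control libraries, and by lower smooth-muscle markers, with sums of 218 and 212 FPKM in Ncr1Cre, against 598 and 587 in control. Des is in both of these marker lists. The sums of the other marker lists were higher in the same libraries. Among them were macrophages and dendritic cells, at 103 FPKM in both Ncr1Cre libraries, against 30.4 and 32.7 in control. The part of any of these markers in the fall was not tested.

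**Figure D3:**
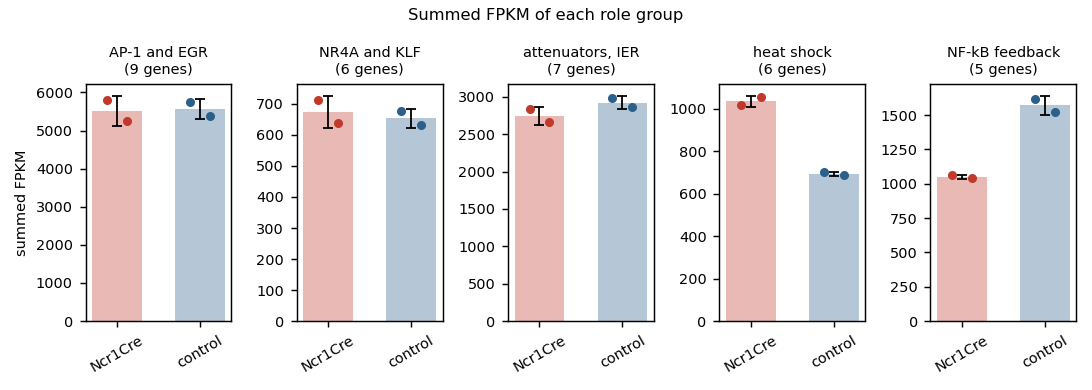
Summed FPKM of each role group (bars, mean of 2 libraries; error bars, SD; points, libraries), each panel with its own axis from 0. AP-1 and EGR genes and NR4A and KLF genes overlap between the genotypes. The heat-shock sum is higher in Ncr1Cre (1017 and 1053 against 701 and 686), mostly through Hspa8 and Dnajb1. The NF-kB sum is lower (1063 and 1041 against 1621 and 1521).

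Ratios between 2 genes of the same library do not depend on the scaling of the library, and for the pairs below, chosen after their values were seen, they are a description without a test. Nr4a2 over Nr4a3 was 3.05 and 2.19 in the Ncr1Cre libraries, against 0.557 and 0.587 in the control libraries. Dusp5 over Dusp1 was 0.173 and 0.162 in the Ncr1Cre libraries, against 0.0383 and 0.0361 in the control libraries. Fosb over Fos was 0.541 and 0.488 in the Ncr1Cre libraries, against 0.357 and 0.331 in the control libraries. In each of these pairs the ratio of the family members differed between the genotypes. Fos over Jun was 1.09 and 1.23 in the Ncr1Cre libraries, against 1.49 and 1.64 in the control libraries. Dnajb1 over Hsp90aa1 was 1.35 and 1.10 in the Ncr1Cre libraries, against 0.548 and 0.551 in the control libraries. Tnfaip3 over Nfkbiz was 0.773 and 0.677 in the Ncr1Cre libraries, against 1.72 and 2.06 in the control libraries. All of these pairs were without overlap between the genotypes, which their choice made likely in advance. Single genes did not overlap in 76.2% of all genes tested, and no share was computed for other pairs.

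**Figure D4:**
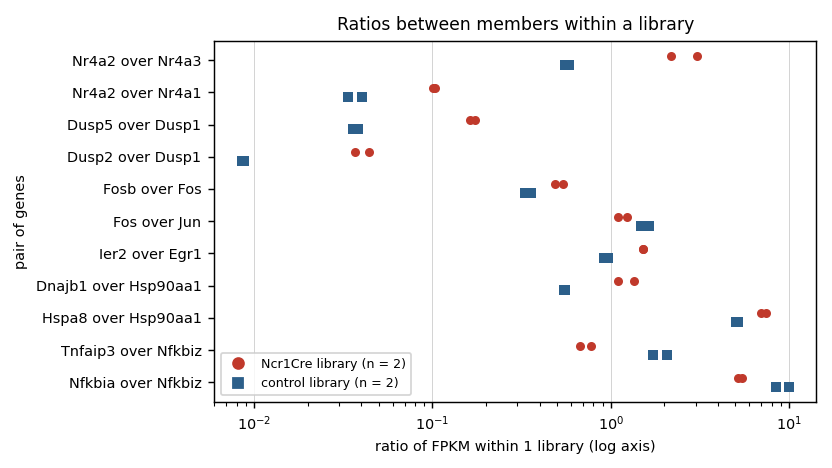
Ratio of the FPKM of 2 member genes within 1 library, on a log axis, with 1 mark per library. The pairs were chosen after their values were seen, and every pair plotted is without overlap between the genotypes. Nr4a2 over Nr4a3 lies above 1 in the Ncr1Cre libraries (3.05 and 2.19) and below 1 in the control libraries (0.557 and 0.587).

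Other genes of the same pathways, in 4 lists of 101 genes, gave a similar share of calls. Of the 98 tested, 47 passed (48.0%, against 48.5% of all genes), 28 higher and 19 lower in Ncr1Cre. The higher genes were 28.6% and the lower genes 19.4% of those tested, against 30.9% and 17.6% of all genes. Of 20 tested AP-1, EGR and SRF-pathway factors 2 rose and 5 fell, and none rose and 7 fell after either rescaling. Those that rose were Fosl1, another FOS subunit (log2 fold change 0.29, adjusted p = 0.0209), and Mafk, a small MAF factor (log2 fold change 0.39, adjusted p = 0.0396), both chosen after their values were seen. Among the lowered ones were Csrnp1, a nuclear protein induced by AXIN, at 112 and 103 FPKM in the Ncr1Cre libraries against 184 and 166 in the control libraries (log2 fold change -0.70, adjusted p = 0.00269), and Jdp2, a repressor of AP-1, at 18.9 and 17.0 FPKM in the Ncr1Cre libraries against 30.9 and 25.8 in the control libraries (log2 fold change -0.63, adjusted p = 0.00941). Egr4, a relative of Egr1, and Elk3, a partner of serum response factor, also fell, with log2 fold changes of -1.02 (adjusted p = 0.00857) and -0.57 (adjusted p = 0.0102). Egr4 was near the floor, at 0.43 and 0.67 FPKM in the Ncr1Cre libraries, against 2.60 and 1.72 in the control libraries. It reached the filter only through the control libraries. Srf, which encodes serum response factor itself, stood at 37.9 and 19.1 FPKM in the Ncr1Cre libraries, against 15.5 and 13.5 in the control libraries, and did not pass (adjusted p = 0.0786). Replicate 1 of Ncr1Cre stood apart for Srf as it did for Jund.

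The list of ERK feedback and mRNA-decay genes also holds KLF factors, Ier5 and Ier5l, which count in its numbers. Of its 25 tested genes 4 rose and 10 fell, beside 30.9% and 17.6% of all genes. Their median log2 fold change was -0.23 beside 0.11 over all genes. Dusp6, a cytoplasmic ERK phosphatase, rose to 20.4 and 20.9 FPKM in the Ncr1Cre libraries, against 7.21 and 7.72 in the control libraries (log2 fold change 1.36, adjusted p = 0.000378). Klf5, an epithelial KLF factor, rose to 19.7 and 18.6 FPKM in the Ncr1Cre libraries, against 6.78 and 5.50 in the control libraries (log2 fold change 1.51, adjusted p = 0.000681). Phosphatases of the list, named after their values were seen, did not share 1 direction: Dusp4 rose too (log2 fold change 0.81, adjusted p = 0.0165), Dusp8, Dusp10 and Dusp14 fell (log2 fold changes -0.48, -0.31 and -0.73), and Dusp7 and Dusp16 did not pass (adjusted p = 0.617 and 0.0749). Zfp36l1, a relative of Zfp36, fell to 246 and 210.3 FPKM in the Ncr1Cre libraries, against 422 and 372 in the control libraries (log2 fold change -0.80, adjusted p = 0.00362). Klf10, a TGF-beta-induced factor, fell to 25.1 and 24.2 FPKM in the Ncr1Cre libraries, against 35.0 and 36.7 in the control libraries (log2 fold change -0.52, adjusted p = 0.00400). Zfp36l1 and Zfp36 both fell.

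Of 28 tested heat-shock factors, chaperones and co-chaperones 16 rose and 3 fell, beside 30.9% and 17.6% of all genes. After median rescaling or quantile normalization 11 or 10 rose and 4 fell. Fkbp4, a co-chaperone of HSP90 and steroid receptors, rose to 80.0 and 80.4 FPKM in the Ncr1Cre libraries, against 39.3 and 37.9 in the control libraries (log2 fold change 1.04, adjusted p = 0.000409). Hspb1, the small heat-shock protein HSP27, rose to 728 and 698 FPKM in the Ncr1Cre libraries, against 489 and 490.4 in the control libraries (log2 fold change 0.54, adjusted p = 0.00191). Hspe1, the mitochondrial chaperonin partner of Hspd1, rose to 81.7 and 79.9 FPKM in the Ncr1Cre libraries, against 54.4 and 54.7 in the control libraries (log2 fold change 0.56, adjusted p = 0.00202). Chaperones of the cytosol and of mitochondria were thus among those that rose. Hspb8, a small heat-shock protein that works with Bag3 in muscle, fell to 48.7 and 49.8 FPKM in the Ncr1Cre libraries, against 92.8 and 92.2 in the control libraries (log2 fold change -0.90, adjusted p = 0.000526), and its partner Bag3 fell too (log2 fold change -0.46, adjusted p = 0.00614; chosen after its value was seen). Hsf1, the main heat-shock factor, stood at 24.1 and 21.1 FPKM in the Ncr1Cre libraries, against 16.1 and 15.6 in the control libraries (log2 fold change 0.48, adjusted p = 0.0112), with a highest adjusted p of 0.0509 when a library was left out.

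Of 25 tested NF-kB subunits, inhibitors and targets 6 rose and 1 fell, beside 30.9% and 17.6% of all genes. After median rescaling or quantile normalization 4 rose and 3 or 4 fell. Nfkb1, the subunit p50, stood at 21.1 and 19.8 FPKM in the Ncr1Cre libraries, against 18.7 and 18.6 in the control libraries (log2 fold change 0.12, adjusted p = 0.240). Rela, the subunit p65, stood at 55.7 and 51.3 FPKM in the Ncr1Cre libraries, against 48.9 and 43.9 in the control libraries (log2 fold change 0.20, adjusted p = 0.114). Neither passed the test, nor did the subunit genes Rel and Relb (log2 fold changes -0.27 and -0.25, adjusted p = 0.0707 and 0.361). Nfkb2, the subunit p52, rose (log2 fold change 0.26, adjusted p = 0.0360), but it was not among the 4 genes that rose after either rescaling. Rel, Relb and Nfkb2 were chosen after their values were seen. Gadd45a, a relative of Gadd45b, rose to 259 and 226 FPKM in the Ncr1Cre libraries, against 60.8 and 51.2 in the control libraries (log2 fold change 2.10, adjusted p = 0.000310), in the opposite direction to Gadd45b. Chuk, the kinase IKKa, rose to 9.26 and 8.80 FPKM in the Ncr1Cre libraries, against 5.39 and 6.05 in the control libraries (log2 fold change 0.58, adjusted p = 0.00730). Nfkbid, another nuclear IkB protein, and Tnip2, a partner of A20, also rose, with log2 fold changes of 0.52 (adjusted p = 0.00940) and 0.89 (adjusted p = 0.0166), and without 1 library their adjusted p reached 0.0531 and 0.0698. The 1 gene of the list that fell was Icam1, an adhesion molecule (log2 fold change -0.26, adjusted p = 0.0376; chosen after its value was seen).

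**Figure D5:**
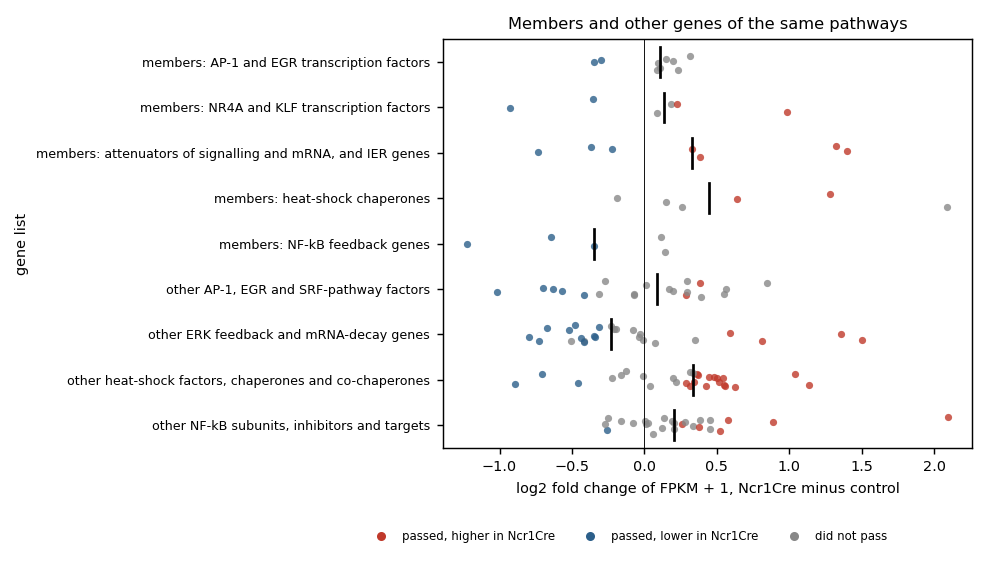
Log2 fold change of FPKM + 1, Ncr1Cre minus control, of every gene of the member groups and of the 4 related lists, 1 point per gene, with a black line at the median of each list. Points that passed the test are coloured by direction: heat-shock genes outside the members lie mostly to the right (16 higher, 3 lower) and the list of ERK feedback and mRNA-decay genes, which also holds KLF factors, Ier5 and Ier5l, to the left (4 higher, 10 lower). Over all genes tested, 30.9% were higher and 17.6% lower.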

How the data were processed

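RNA was sequenced in 2 Ncr1Cre and 2 control libraries, which the labels call sorted uterine NK cells. The authors deposited 1 FPKM value per gene and library, computed with Cufflinks, and the submitters' processing notes name mm9 as the build. Not given in the sources used here are the version, the aligner, the annotation, the use of strand and how multiply mapped reads were handled, so values of near-identical or overlapping genes are uncertain, among them Hspa1a, Hspa1b and genes with processed pseudogenes such as Hspa8. The floxed gene is not reported here. FPKM are not counts, and depth was estimated from steps of whole fragments in low values, of which 34.5% to 37.5% came out whole within 0.02 fragments, so the estimates are rough. At them, 1 fragment on 1 kb was worth 0.0260 to 0.0477 FPKM.

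The 11762 genes whose mean reached 1 FPKM entered limma (3.58.1, under R 4.3.3), fitted to log2(FPKM + 1) with a variance trend on intensity. P-values are two-sided, adjusted by the Benjamini-Hochberg method, and fold changes understate the change of low genes. The procedure was tested on simulated data with independent noise and 200 changed genes, while 5709 genes passed here. That test therefore does not show how the procedure performs when so many genes differ. The members and gene lists were chosen with earlier results of these data known. Named were all 33 members, Srf, Hsf1, Nfkb1, Rela, up to 4 genes of each related list with the smallest p among those that passed, and the marker lists by counts and sums; other names are said to be chosen after their values were seen. Promoter windows and starts come from RefSeq on GRCm38.p6, a newer build than mm9, and the identity of Hspa1a and Hspa1b from that build's annotated sequence. Alternatives were a pseudocount of 0.1, no filter, a minimum of 5 FPKM, median rescaling, quantile normalization, no trend, a replicate block and leaving out each library.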

Additional observations from a re-analysis of the deposited data

How the results depend on the processing

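Of the 18 members that passed, 11 kept their call under every one of the 11 alternatives: Dusp2, Dusp5, Hspa8, Dnajb1 and Nr4a2 (higher) and Fos, Dusp1, Nr4a3, Zfp36, Nfkbia and Tnfaip3 (lower). The other 7 (Egr1, Nr4a1, Klf6, Btg2, Ier2, Ier3 and Gadd45b) lost it when some library was left out, and 8 members that did not pass did so under some alternative. A lone library left in a genotype is assumed to vary like the other genotype. Members higher and lower numbered 8 and 10 as reported, 6 and 11 with median rescaling, and 5 and 11 with quantile normalization. With a library left out they numbered 5 to 9 higher (5 without replicate 2 of the control) and 6 to 9 lower (6 without replicate 1 of the control). Related genes higher numbered 18 after quantile normalization against 28 as reported, and related genes lower 12 to 20 with a library left out against 19.

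Over all genes, 5709 passed as reported, 5665 with a pseudocount of 0.1, 5975 with no filter, 4037 with a minimum of 5 FPKM (Cd83 not tested), 5650 with no trend, 5641 after median rescaling (2923 higher, 2718 lower), 5647 after quantile normalization (2615 higher, 3032 lower) and 4092 to 5034 with a library left out, of which 1354 to 1883 were lower (1354 without replicate 1 of the control, against 2071 as reported). Replicate numbers are shared by the genotypes in the labels only as numbers, with a correlation of replicate deviations of 0.16. The fit with a replicate block called 6004 genes and 23 members, 12 higher and 11 lower.

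Log2 fold changes that turned sign all belonged to members that did not pass. After median rescaling they were -0.044 for Jun, -0.024 for Atf3, -0.016 for Egr2 and -0.044 for Klf4. After quantile normalization they were -0.028 for Fosb, -0.073 for Jun, -0.074 for Junb, -0.10 for Atf3, -0.073 for Egr2, -0.071 for Klf4, -0.024 for Hsp90aa1 and -0.047 for Cd83. With a library left out they ranged from -0.062 to 0.46 for Jund, -0.36 to 0.55 for Egr2, -0.001 to 0.17 for Klf4, -0.38 to 4.55 for Hspa1b and -0.014 to 0.30 for Nfkbiz. With Hspa1a and Hspa1b summed, an alternative added after seeing the data, the value was 0.12 against -0.19 for Hspa1a alone. The cause of these changes was not tested. With 2 libraries a genotype, differences near the spread between replicates cannot be resolved, and Cd83, the member with the fewest estimated fragments beside Hspa1b, rested on 141 to 302 a library.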
